A study of Homo sapiens with 15 samples.

Results

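TLR4, CD14 and LY96, which together recognise bacterial endotoxin at the cell surface, and the chemokine genes CXCL8 and CCL20, which epithelial cells transcribe when that recognition reaches NF-κB, were followed in Caco-2 cells, an established human colon carcinoma line used as a model of the intestinal absorptive epithelium. The 5 genes are 5 of the 14884 named genes of the array, and each was chosen by its symbol in the platform annotation, where each has 1 probe set, with no filter on brightness. LPS+RSV cells received 50 µM trans-resveratrol, a plant polyphenol, for 1 h and then lipopolysaccharide (LPS) of E. coli K12 at 1 µg/mL with a 48 h exposure. LPS cells received the same endotoxin without resveratrol, and control cells received neither. Each group had 5 arrays, 15 in all. All cultures shared the same line and the same medium. The labels give their age as 15 to 19 days after seeding, a range and not 1 shared age. The labels name ethanol as the solvent of resveratrol and do not say whether the other groups received it. They number the samples of each group but do not state where each came from, so the error behind every p-value is the scatter among these arrays, part of which may be technical.

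In the textbook pathway, CD14 hands a molecule of LPS to the complex of TLR4 with LY96 (also called MD-2), TLR4 pairs up, and the adaptors MYD88 and TICAM1 carry the signal to the kinases that free NF-κB and to those that activate interferon regulatory factors. CXCL8 (interleukin 8) draws neutrophils through CXCR1 and CXCR2, and CCL20 draws CCR6-bearing dendritic cells, T cells and B cells towards the epithelium. Intestinal epithelial cells are known for keeping this receptor complex low, which limits their response to the endotoxin of resident bacteria.

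The stretches upstream of both chemokine genes are shown because they are the 2 outputs set beside each other below, one on a bright and one on a dim probe set. They are the 150 bases before the RefSeq transcription start on GRCh38.p14, plus strand, 5′ to 3′, at chr2:227813692-227813841 for CCL20 and chr4:73740419-73740568 for CXCL8. Capitals mark matches, on either strand, to GGNANNNCC, a relaxed form of the κB motif. They also mark TGANTCA, the motif of AP-1 (a factor of the stress kinase pathways). The letters TATAAA, which form the core of the TATA box, are marked likewise.
CCL20: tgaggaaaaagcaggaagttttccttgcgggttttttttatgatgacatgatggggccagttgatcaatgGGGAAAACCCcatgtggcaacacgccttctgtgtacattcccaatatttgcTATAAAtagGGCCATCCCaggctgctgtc
CXCL8: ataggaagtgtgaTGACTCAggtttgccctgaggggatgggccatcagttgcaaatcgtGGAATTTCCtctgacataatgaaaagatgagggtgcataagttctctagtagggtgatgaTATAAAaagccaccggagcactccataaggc
In CCL20, 2 overlapping matches to the relaxed κB letters ran from base -80 to -71 before the start, and another match, on the opposite strand, from -20 to -12. In CXCL8 the κB match lay at -91 to -83 and the AP-1 match at -137 to -131. Both genes had TATAAA, at -29 to -24 in CCL20 and at -31 to -26 in CXCL8, with no overlap with another motif. The κB letters were relaxed after these sequences had been seen and are common: of 35116 RefSeq promoters, 45.5% held GGNANNNCC within 250 bases before the start. The share was 6.57% for the AP-1 letters and 10.7% for the TATA box. A match is a string of letters and not a measured binding site.

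The array values were log2 expression values, with array medians between 5.49 and 5.54, and the correlation of any array with another lay between 0.922 and 0.994. LPS+RSV replicate 1 stood furthest from the others, with a mean correlation of 0.946. An earlier analysis of these arrays also set LPS replicates 1 and 2 apart, although their mean correlations, 0.978 and 0.976, lay within the range of the other arrays. Differences without these 3 arrays are given beside each gene where they moved by over 1.5 times. Enterocyte markers were represented by 8 of 14 genes. VIL1, the villin of the brush border, lay at the 98.6th percentile of the rows on average, the intestinal transcription factor CDX2 at the 93.1st and the disaccharidase SI at the 99.4th. The keratin gene KRT20 lay at the 59.8th, and the other 7 of these markers averaged above the 90th. Myeloid markers were represented by 7 of 12 genes, whose mean log2 level per array spanned 6.72 to 6.96 (LPS+RSV), 6.75 to 7.00 (LPS) and 6.64 to 6.82 (control). Among them the scavenger receptor gene CD163 lay at the 19.8th percentile and the lysosomal protein gene CD68 at the 99.1st. The values fall on no true zero, so none of these markers can be called absent.

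The first question was how bright the sensing genes and their outputs were relative to the other rows of the same array. CCL20 was bright and the other 4 genes were not. CCL20 lay at the 85.9th percentile of the 53617 rows on average, CD14 at the 54.6th, TLR4 at the 41.1st, CXCL8 at the 24.7th and LY96 at the 2.72nd. Probe sets differ in how strongly they bind, so these ranks do not order the genes by transcript number, and the table holds no call of presence or absence. As a yardstick, 12 genes restricted to other tissues, among them sperm protamines, milk casein and glial GFAP, averaged between the 3.28th and the 66.0th percentile.

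**Figure D1:**
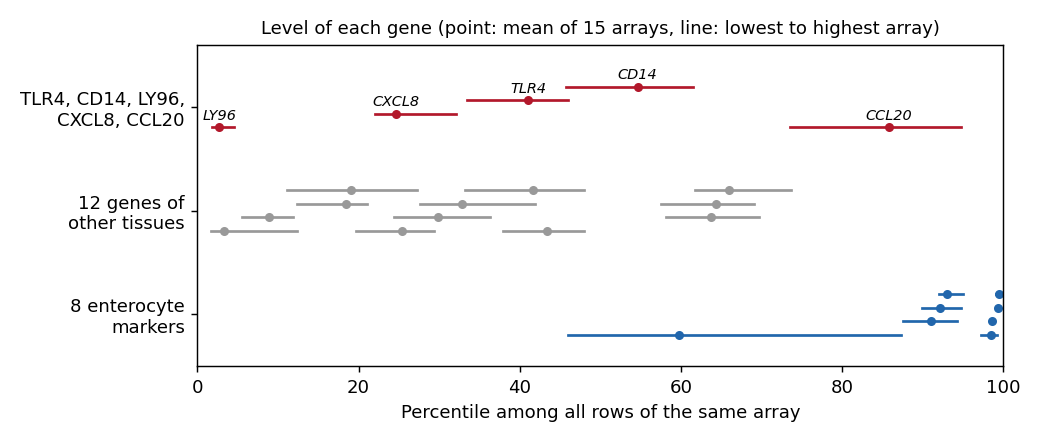
Level of each gene as a percentile of all rows of the same array (horizontal axis), with the mean of 15 arrays as a point and the lowest to the highest array as a line. On average CCL20 lies to the right of the 12 genes of other tissues, and LY96 lies to the left of all 12. CD14, TLR4 and CXCL8 lie within the range of those genes, and 7 of the 8 enterocyte markers average above the 90th percentile.

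LY96, the co-receptor without which TLR4 does not bind endotoxin, was the dimmest of the 5. It ranged from the 1.85th to the 2.99th percentile in LPS+RSV. The LPS arrays lay between the 1.81st and the 4.02nd, and the control arrays between the 2.14th and the 4.57th. It averaged below all 12 genes of other tissues. CXCL8 averaged above 4 of those 12 genes, and it exceeded their median on 0 of 15 arrays. TLR4 averaged above 7 of the 12 and CD14 above 9, and both exceeded the median of those genes on all 15 arrays and the highest of them on 0. CCL20 was above the highest of them on 14 of 15 arrays, the exception being an LPS+RSV array (replicate 1) at the 73.5th percentile.

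TLR4, the signalling receptor, had log2 values of 5.28, 5.15, 4.96, 5.24 and 5.04 in LPS+RSV, of 5.32, 5.08, 5.10, 4.76 and 5.11 in LPS, and of 5.23, 4.96, 5.35, 5.20 and 4.94 in control, in the order of replicates 1 to 5. The 3 groups overlapped over most of their range. TLR4 differed between LPS and control by -0.07 ± 0.11 (log2, SE, 95% confidence interval -0.29 to 0.16, limma adjusted p = 0.939) and between LPS+RSV and LPS by 0.06 ± 0.11 (interval -0.16 to 0.29, limma adjusted p = 0.809). The difference of LPS+RSV from control was below 0.01 in size on the log2 scale, with an interval of -0.23 to 0.22. Without the 3 arrays the TLR4 differences were -0.15, 0.11 and -0.04 in the same order (lowest limma adjusted p = 0.770).

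CD14, the protein that loads endotoxin onto the receptor, had log2 values of 6.07, 5.76, 5.71, 5.85 and 5.92 in LPS+RSV, of 5.86, 5.75, 5.72, 5.70 and 5.67 in LPS, and of 5.61, 5.46, 5.34, 5.79 and 5.81 in control. Of the LPS+RSV arrays, 3 of 5 lay above every control array, and the others overlapped with control. The means were 5.86 ± 0.14 in LPS+RSV, 5.74 ± 0.08 in LPS and 5.60 ± 0.20 in control (SD, n = 5 each). The LPS+RSV arrays exceeded control by 0.26 ± 0.10 on the log2 scale, or 1.20-fold (interval 0.06 to 0.46), with an unadjusted limma p of 0.0156 and an adjusted p = 0.521, so CD14 did not pass. The exact permutation test of that difference, over all 252 divisions of the 10 arrays, gave a 2-sided p = 0.0556, where the smallest such a test can give is 0.00794. The other CD14 differences were 0.14 ± 0.10 for LPS relative to control (limma adjusted p = 0.823) and 0.12 ± 0.10 for LPS+RSV relative to LPS (limma adjusted p = 0.562). Single arrays weighed on both: the first was 0.07 without control replicate 3 and the second 0.07 without LPS+RSV replicate 1. With a score of cell cycle genes as a covariate, CD14 differed by 0.23 between LPS and control (limma adjusted p = 0.263) and by less than 0.01 in size between LPS+RSV and LPS.

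LY96 had log2 values of 2.34, 2.09, 2.12, 2.30 and 2.44 in LPS+RSV, of 2.54, 2.35, 2.17, 2.32 and 2.11 in LPS, and of 2.28, 2.55, 2.23, 2.26 and 2.19 in control. The group means lay within 0.05 of each other, which was less than the SD within any group. All 3 intervals for LY96 fell between -0.25 and 0.20, and its limma adjusted p was 0.994 for LPS relative to control, 0.872 for LPS+RSV relative to LPS and 0.876 for LPS+RSV relative to control. At the bottom of the intensity range a change in transcript number is compressed on the log2 scale, so these intervals concern the probe signal. Without the 3 arrays LY96 differed by -0.10 between LPS and control (limma adjusted p = 0.884) and by 0.04 between LPS+RSV and LPS (limma adjusted p = 0.921).

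**Figure D2:**
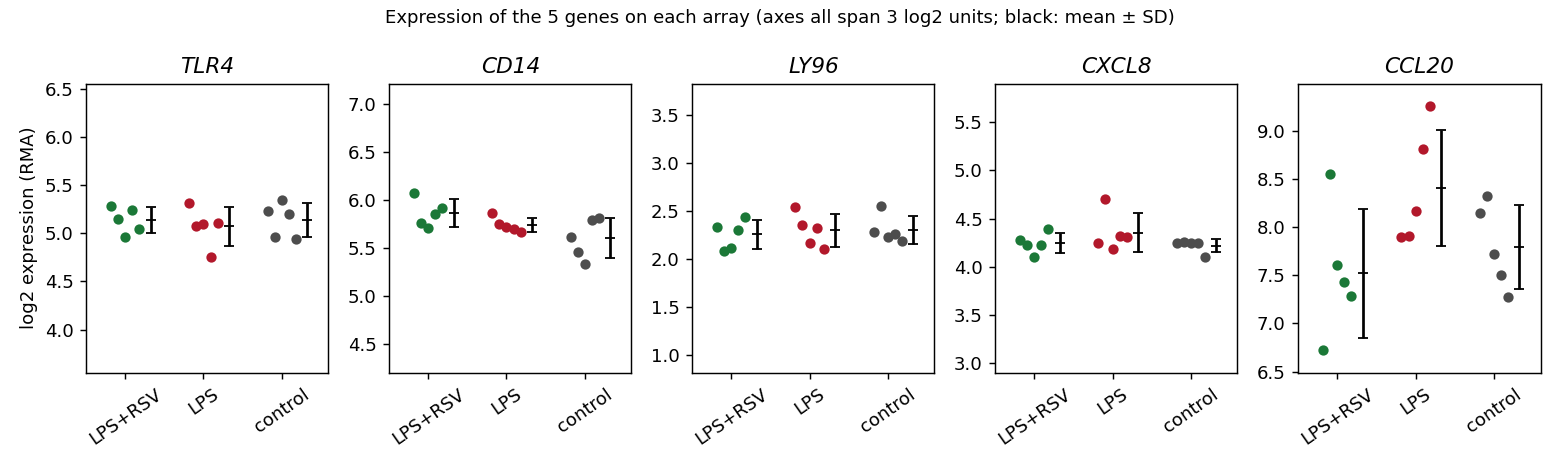
Log2 expression of the 5 genes on each array (points, replicates 1 to 5 from left to right within a group), with the group mean ± SD in black (n = 5 arrays). All panels span 3 log2 units. The groups overlap for every gene, and CCL20 spreads from 6.72 to 9.25 while the other 4 genes stay within 1 unit.

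CXCL8 had log2 values of 4.28, 4.23, 4.10, 4.23 and 4.39 in LPS+RSV, of 4.24, 4.70, 4.19, 4.32 and 4.31 in LPS, and of 4.24, 4.26, 4.24, 4.24 and 4.10 in control. LPS replicate 2 was the highest of the 15 arrays, and 3 of 5 LPS arrays lay above every control array. The means were 4.25 ± 0.10 in LPS+RSV, 4.35 ± 0.20 in LPS and 4.22 ± 0.07 in control (SD, n = 5 each). Control replicates 1, 3 and 4 and LPS replicate 1 had the identical value 4.2435, so the control SD may understate the spread. CXCL8 differed by 0.13 ± 0.09 between LPS and control (interval -0.05 to 0.32, limma adjusted p = 0.812), by -0.11 ± 0.09 between LPS+RSV and LPS (interval -0.29 to 0.08, limma adjusted p = 0.594) and by 0.03 ± 0.09 between LPS+RSV and control (limma adjusted p = 0.919). The upper bound for LPS over control corresponded to 1.25-fold in probe signal. LPS replicate 2 carried most of both differences from LPS: without it CXCL8 differed by 0.05 between LPS and control and by -0.02 between LPS+RSV and LPS. Without the 3 arrays these values were 0.05 and -0.03.

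CCL20 varied most between groups and between arrays of a group. Its log2 values were 6.72, 8.55, 7.61, 7.43 and 7.28 in LPS+RSV, 7.89, 7.91, 8.17, 8.81 and 9.25 in LPS, and 8.15, 8.32, 7.72, 7.51 and 7.27 in control. The 2 highest arrays were both LPS arrays and the lowest was an LPS+RSV array, but LPS+RSV replicate 2 lay above 3 of the 5 LPS arrays, and the LPS and control groups overlapped between 7.89 and 8.32. The means were 7.52 ± 0.67 in LPS+RSV, 8.41 ± 0.60 in LPS and 7.79 ± 0.44 in control (SD, n = 5 each).

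CCL20 was 0.89 ± 0.32 lower in LPS+RSV than in LPS on the log2 scale (a log2 difference of -0.89, interval -1.56 to -0.21), 0.54 of the LPS level, and 4 of 5 LPS+RSV arrays lay below every LPS array. The unadjusted limma p was 0.0132, the adjusted p = 0.217 and the exact permutation 2-sided p = 0.0714, so the difference did not pass. Between LPS and control CCL20 differed by 0.61 ± 0.32, or 1.53-fold (fold interval 0.958 to 2.44), and 2 of 5 LPS arrays lay above every control array (limma adjusted p = 0.733, exact permutation 2-sided p = 0.111). The difference of LPS+RSV from control was -0.27 ± 0.32 (interval -0.95 to 0.40, limma adjusted p = 0.762). LPS+RSV relative to LPS and LPS relative to control share the LPS arrays, so the opposite signs of these differences are not independent of each other. In bulk RNA, fewer cells that express CCL20 and less CCL20 RNA per cell cannot be told apart.

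**Figure D3:**
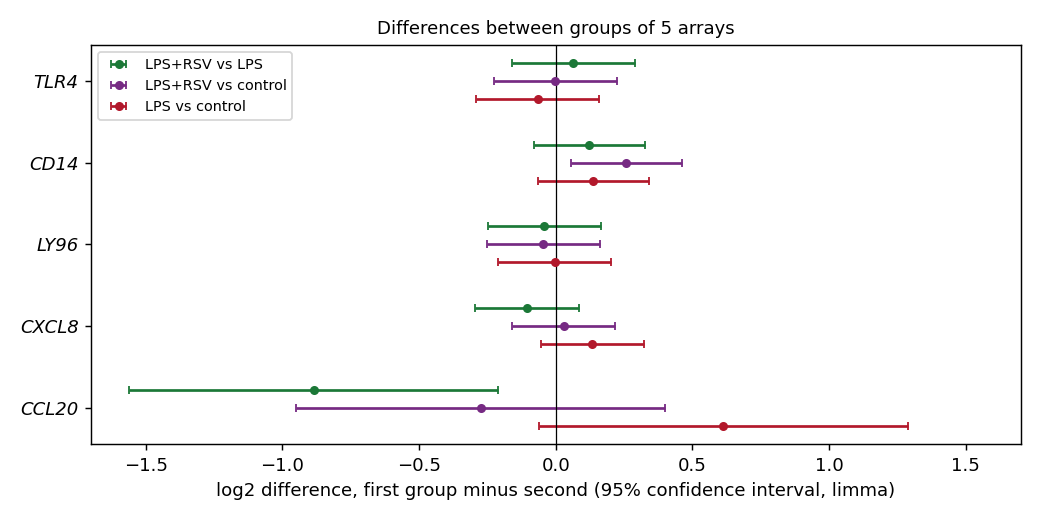
Log2 difference of each gene between groups of 5 arrays, first group minus second (horizontal axis), with 95% confidence intervals from limma. Only the intervals of CCL20 in LPS+RSV relative to LPS and of CD14 in LPS+RSV relative to control leave out 0, and neither difference passed after adjustment over 14884 genes (adjusted p = 0.217 and 0.521).

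Across the whole array, 4 genes passed an adjusted p of 0.05 in LPS relative to control (0.0269% of 14884), 5 in LPS+RSV relative to LPS (0.0336%) and 0 in LPS+RSV relative to control (0%, limma, with 1401 genes, or 9.41%, at an unadjusted p under 0.05). Of the 5 genes described here, 0 passed in any of them. At an unadjusted limma p under 0.05, 0 of 5 were reached in LPS relative to control, where 7.24% of all genes were (4.38% higher and 2.86% lower). CCL20, lower, was the 1 of 5 in LPS+RSV relative to LPS, where 15.7% of all genes were (6.83% higher and 8.83% lower). CD14, higher, was the 1 of 5 in LPS+RSV relative to control (3.98% of all genes higher and 5.44% lower). For none of the 5 genes did the arrays of 2 groups fall apart without overlap, which happened for 1.89%, 2.43% and 1.53% of all genes in the same order of comparisons.

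The spread of CCL20 within groups was far above that of most genes. Its residual SD was 0.58 on the log2 scale, higher than in 99.1% of the 14884 genes, whose median was 0.16. TLR4, CD14, LY96 and CXCL8 had residual SDs of 0.17, 0.15, 0.16 and 0.14, near that median. A difference of the size seen for CCL20 therefore stood against a spread 3.53 times the median gene's.

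The spread of CCL20 followed the genes of cell division. A cell cycle score was taken for each array as the mean log2 deviation of 22 genes, among them MKI67, CDK1 and PLK1. It ranged from -0.96 to 0.48 in LPS+RSV (median -0.43), from -0.03 to 1.07 in LPS (median 0.21) and from -1.10 to 0.50 in control (median -0.16). All 22 genes were higher in LPS than in control (median 0.64) and lower in LPS+RSV than in LPS (median -0.75). By any amount, 54.1% of all genes were higher in the first comparison and 52% in the second. None of the 22 passed in either (0 by limma). At an unadjusted limma p under 0.05, 7 of 22 were higher in LPS than in control, where 4.38% of all genes were higher. In LPS+RSV relative to LPS, 16 of 22 were lower at that threshold, where 8.83% of all genes were lower. CCL20 and the score correlated over the 15 arrays with Pearson r = 0.911 (permutation p = 1e-05, the smallest that 100000 permutations can give) and Spearman rho = 0.939 (permutation p = 1e-05). With each group centred on its own mean, r was 0.870 (permutation p = 3e-04) and rho 0.854 (permutation p = 7e-04, both permuted within groups). Without the 2 arrays farthest from the median score, r was 0.902 as measured and 0.852 centred. This relation was noticed in these data and then tested on them. It was computed for all 5 genes, and the other 4 had r between -0.46 and 0.19, with CD14 at -0.46, or -0.60 centred. Many genes follow the score: 259 of 11804 had a higher r with it than CCL20 did, and 500 did after centring.

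**Figure D4:**
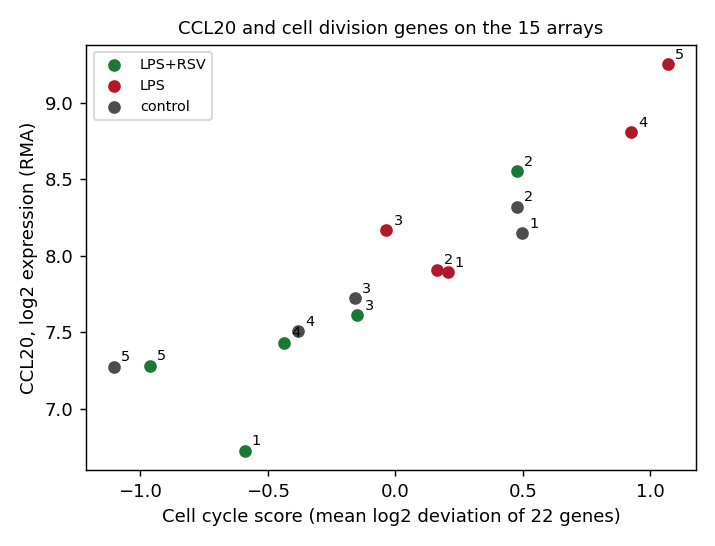
CCL20 (log2 expression, vertical axis) against the cell cycle score (mean log2 deviation of 22 genes, horizontal axis) on the 15 arrays, with replicate numbers beside the points. The arrays of all 3 groups lie along 1 rising band (r = 0.911), with LPS replicates 4 and 5 at its upper end.

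With the cell cycle score as a covariate in the fit, the residual SD of CCL20 was 0.30, against 0.58 without it. Its difference between LPS+RSV and LPS was then -0.19 ± 0.19 (interval -0.60 to 0.23, limma adjusted p = 0.815), and between LPS and control 0.09 ± 0.18 (interval -0.30 to 0.47, limma adjusted p = 0.869). Because the score also differed between the groups, a response to treatment that runs with cell division and a difference in division between cultures cannot be told apart. Without LPS replicates 1 and 2 and LPS+RSV replicate 1, the CCL20 difference was -1.02 ± 0.33 for LPS+RSV relative to LPS (limma adjusted p = 0.478) and 0.95 ± 0.32 for LPS relative to control (limma adjusted p = 0.584), the second over 1.5 times the value with all arrays. For LPS+RSV relative to control it was then -0.07, the same as without LPS+RSV replicate 1 alone. That difference was -0.53 without LPS+RSV replicate 2 and -0.14 without control replicate 2. Without LPS replicate 5 the difference between LPS and control was 0.40.

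The 5 genes whose values over the 15 arrays were most like those of CCL20, among 11803 candidates above the brightness filter, were BUB3 (r = 0.970), a spindle checkpoint protein, DUSP12 (r = 0.965), a dual specificity phosphatase, CSE1L (r = 0.962), which returns importin alpha to the cytosol, NEIL3 (r = 0.958), a DNA glycosylase, and GPR19 (r = 0.958), an orphan receptor. After centring each group, r stayed between 0.944 and 0.977. NEIL3 averaged 6.79 in LPS+RSV, 7.54 in LPS and 7.06 in control, and GPR19 6.10 in LPS+RSV, 6.91 in LPS and 6.48 in control. That is the order of groups of CCL20, which their choice by correlation over the same 15 arrays favoured. Neither passed in LPS+RSV relative to LPS (limma adjusted p = 0.278 for NEIL3 and 0.195 for GPR19). The 22 cell cycle genes correlated with CCL20 between 0.649 and 0.940, with a median of 0.888. The 117 other genes of the endotoxin lists had a median r of -0.19, and 13 of them exceeded 0.5. Over all 11803 candidates above the brightness filter the median r was -0.08, and 2475 exceeded 0.5. The 8 enterocyte markers had a median r of -0.63 with CCL20, and the 7 myeloid markers -0.07, with LYZ, the lysozyme gene, highest at 0.776. The myeloid markers had a median difference of 0.18 in LPS relative to control (5 of 7 higher, where 54.1% of all genes were). In LPS+RSV relative to LPS the median of these markers was -0.08 (5 of 7 lower, where 52% of all genes were higher). Their part in the CCL20 differences was not tested. These values describe 15 arrays that were normalized together.

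The 5 genes were little alike among themselves. CCL20 and CXCL8 correlated at r = 0.111 (Spearman rho = 0.195) over the 15 arrays, and at -0.14 after centring each group. TLR4 correlated at 0.06 with both CD14 and LY96. CD14 ran against CCL20 (r = -0.50, and -0.64 centred). LY96 and CXCL8, both dim, correlated at r = 0.335 (rho = 0.582). These are the most distant from 0 of the 10 pairs. For the dimmer genes, the probe sets most like them were EFL1P1 for TLR4 (r = 0.831), IER2 for CD14 (r = 0.928), PCDH7 for LY96 (r = 0.784) and RAI1 for CXCL8 (r = 0.942), in each case the highest among the 11803 or 11804 candidates.

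The rest of the pathway was read from 13 lists of 166 genes, of which 118 had a probe set named here. None of the 118 passed in any comparison (0 genes by limma, with 5, 11 and 10 at an unadjusted p under 0.05 for LPS relative to control, then for both contrasts of LPS+RSV (with LPS first, with control second), or 4.24%, 9.32% and 8.47%). Over all genes these shares were 7.24%, 15.7% and 9.41%, higher in each comparison. Among these 118 genes CCL20 had the largest difference in size both in LPS relative to control and in LPS+RSV relative to LPS. The median over the 118 was 0.02, 0.00 and 0.03 in the same order, against 0.01, 0.01 and 0.02 over all genes.

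**Figure D5:**
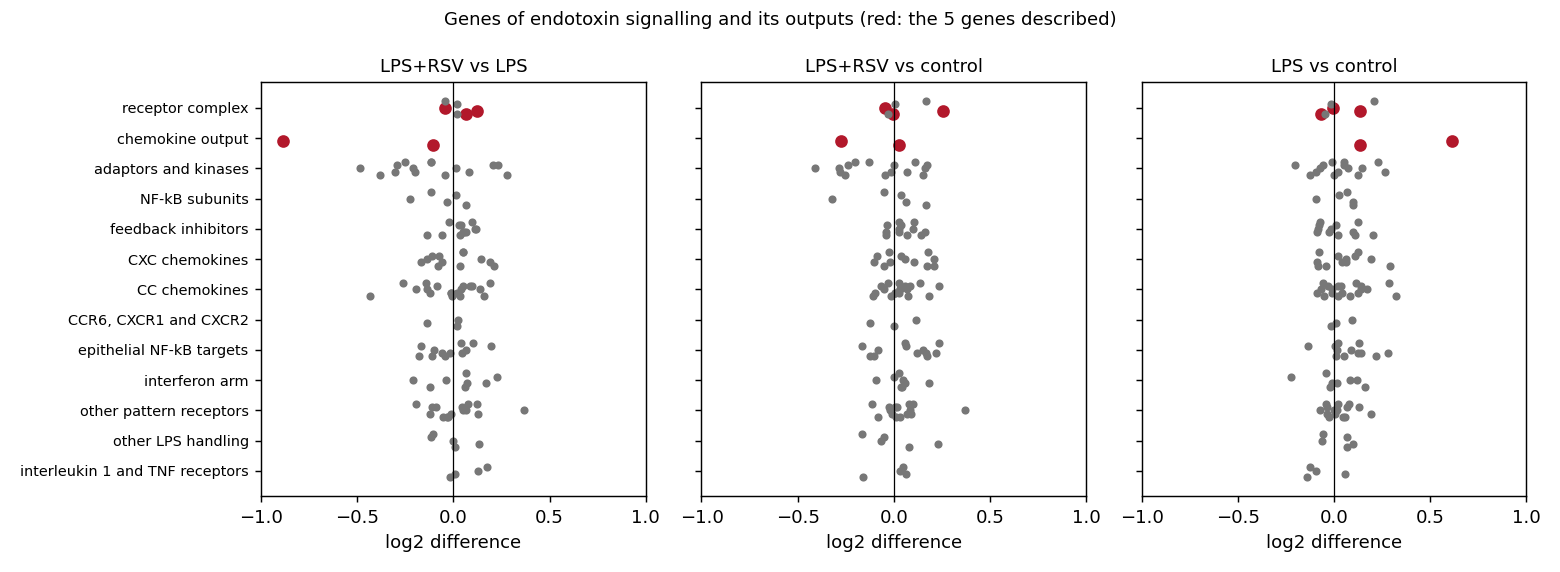
Log2 differences of 118 genes of endotoxin signalling and its outputs, by list (rows), in the 3 comparisons (panels), with the 5 genes described here in red. CCL20 lies farthest out in LPS+RSV relative to LPS (-0.89) and in LPS relative to control (0.61).

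Of the 6 genes of the receptor complex and its relatives, which add the LPS-binding protein gene LBP and the TLR4-like pair CD180 and LY86, 2 were higher and 4 lower in LPS than in control, with a median of -0.01. Of all genes, 54.1% were higher in that comparison. Adaptors and kinases were measured by 15 of 22 genes, and 5 were higher and 10 lower between LPS+RSV and LPS, and their median was -0.12, against 0.01 over all genes. At an unadjusted limma p under 0.05, 5 of the 15 were lower and 2 higher, where 8.83% of all genes were lower and 6.83% higher. CHUK, the IκB kinase alpha, differed by -0.29 ± 0.08, and TAB3, which docks the kinase TAK1 to ubiquitin chains, by -0.38 ± 0.11 (limma adjusted p = 0.164 for each). The gene of TAK1 itself, MAP3K7, differed by -0.30 ± 0.11, and TBK1, a kinase of the interferon branch that was singled out after its values were seen, by -0.48 ± 0.19. All 5 LPS+RSV arrays lay below every LPS array for TBK1 (limma adjusted p = 0.251). The groups did not overlap, in either direction, for 2.43% of all genes in that comparison. The 5 LPS+RSV arrays also lay below every control array for TBK1 (-0.41, limma adjusted p = 0.530), where 1.53% of all genes had no overlap. TBK1 was uneven among the LPS+RSV arrays, with an SD of 0.57, against 0.15 in LPS and 0.07 in control. Higher in LPS+RSV than in LPS were TAB1, an activator of TAK1, by 0.23 ± 0.09, and SARM1, a Toll adaptor that dampens the TICAM1 branch, by 0.21 ± 0.10.

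In LPS relative to control, TRAF3, a ubiquitin ligase of the same branch, differed by 0.27 ± 0.07 (7.21 ± 0.14 in LPS and 6.95 ± 0.06 in control, SD, n = 5 each), with 4 of 5 LPS arrays above every control array (limma adjusted p = 0.366). IRAK1, the kinase next to MYD88, differed by 0.23 ± 0.09 (limma adjusted p = 0.597). TRAF3 and IRAK1 were the 2 of 15 adaptor and kinase genes at an unadjusted limma p under 0.05, both higher. Of all genes, 4.38% were higher at that threshold in the same comparison. TRAF3 differed by -0.20 ± 0.07 in LPS+RSV relative to LPS. In LPS+RSV relative to control, 4 of these 15 adaptor and kinase genes reached an unadjusted limma p under 0.05, all lower, where 5.44% of all genes were lower: UBE2N at -0.29, MAP3K7 at -0.28, TAB3 at -0.26 and CHUK at -0.24.

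The 5 NF-κB subunit genes were all named, and 4 were higher and 1 lower in LPS than in control, with a median of 0.07. Of all genes, 54.1% were higher in that comparison. In LPS+RSV relative to control the subunits RELA and REL differed in opposite directions, by 0.17 ± 0.07 and by -0.32 ± 0.14 (limma adjusted p = 0.521 for each). RELA was the 1 of 5 higher, and REL the 1 of 5 lower, at an unadjusted limma p under 0.05. Of all genes, 3.98% were higher and 5.44% lower at that threshold. Of 18 inhibitors that feed back on the pathway, 12 were measured, 6 higher and 6 lower in LPS than in control with a median below 0.01 in size. ZC3H12A, a ribonuclease that degrades inflammatory transcripts, differed by 0.20 ± 0.09 (limma adjusted p = 0.641). It was the only 1 of the 12 at an unadjusted limma p under 0.05, where 4.38% of all genes were higher. The best known NF-κB feedback genes NFKBIA and TNFAIP3 had no probe set named here and were not analysed.

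The other chemokines differed less than CCL20. Of 13 CXC chemokine genes measured, CXCL8 included, 9 were higher and 4 lower in LPS than in control (median 0.06), and of 20 CC chemokine genes, CCL20 included, 13 were higher and 7 lower (median 0.04, with 54.1% of all genes higher). CXCL16, a membrane-bound chemokine of epithelium, differed by 0.29 ± 0.12, at 8.29 ± 0.21 in LPS and 7.99 ± 0.19 in control (SD, n = 5 each, limma adjusted p = 0.619). In LPS+RSV relative to LPS, 6 CXC genes were higher and 7 lower (median -0.06), and 9 CC genes were higher and 11 lower (median -0.01), where 52% of all genes were higher. CXCL12, a chemokine of lymphocyte and stem cell homing, differed by 0.21 ± 0.08 in LPS+RSV relative to control (limma adjusted p = 0.521), where 56.8% of all genes were higher. The receptors of the 2 chemokines, CCR6, CXCR1 and CXCR2, averaged between the 23.6th and the 49.3rd percentile and reached no unadjusted p under 0.05 in any comparison (0 of 3, limma).

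Other epithelial NF-κB targets were measured by 12 of 22 genes, and 11 were higher and 1 lower in LPS than in control, with a median of 0.07, where 54.1% of all genes were higher. PIGR, which carries immunoglobulin A across the epithelium, was the only one at an unadjusted p under 0.05, which 7.24% of all genes reached (0.22 ± 0.10, limma adjusted p = 0.683). Between LPS+RSV and LPS, 5 of the 12 were higher and 7 lower, with 0 at an unadjusted p under 0.05 by limma.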

How the data were processed

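The deposited table holds log2 expression values for every probe set on each array, computed by the authors with RMA per the submitters' processing notes; the version and the annotation build were not given in the sources used here. Per the labels' protocols, 300 ng of total RNA per sample was turned into labelled sense-strand cDNA. Of 53617 rows, 16098 carried 1 gene symbol, 0 several and 37519 were unnamed here, covering 14884 symbols. Each symbol was represented by its brightest row, without a filter. For the tests, limma 3.58.1 (R 4.3.3, lmFit and eBayes) estimated 1 mean per group from the 15 arrays together, with Benjamini-Hochberg adjustment over 14884 genes and a threshold of 0.05. The brightness filter for likeness kept genes above the 40th percentile of rows in at least 5 arrays. The number of arrays limits the precision. Exact permutation tests (15, 2-sided) compared group means.

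The members and lists were chosen with earlier results of these data known. Named genes were the members, list genes with adjusted p under 0.05, up to 4 genes per list, direction and comparison with the lowest unadjusted p under 0.05, and the genes most correlated with each member, of which the first is named for all but CCL20. Others were named after their values were seen. Alternatives changed the filter, rows, normalization, moderation, weights, groups, covariate, block and arrays. Promoters came from RefSeq (GRCh38.p14).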

Additional observations from a re-analysis of the deposited data

Results flagged for a closer look

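In 3 of 15 sets of 5 arrays (5 genes in 3 groups), 1 array lay farther from its nearest neighbour than Dixon's 95% criterion allows for 5 values; chance alone flags about 1 set in 20. CXCL8 was at 4.70 in LPS replicate 2, where the next LPS array was at 4.32. CXCL8 was at 4.10 in control replicate 5, below the other control arrays at 4.24 to 4.26. Of those, replicates 1, 3 and 4 had the identical value 4.2435, as did LPS replicate 1. This flag rests in part on those ties, whose cause was not tested. LY96 was at 2.55 in control replicate 2, where the next control array was at 2.28. CCL20, whose spread was the widest, had no such array in any group.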

How the results depend on the processing

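Each of the 5 genes was recomputed in 3 comparisons under 11 alternatives, where they could be fitted, and without each of the 15 arrays, for 384 values in all. None passed (0 by limma, lowest adjusted p = 0.074, for CCL20 in LPS+RSV relative to LPS without LPS+RSV replicate 2), and 19 changed sign, all of them small. LY96 and CXCL8 lay below the brightness filter and have no value there. CCL20 kept its direction throughout: -1.14 to -0.67 for LPS+RSV relative to LPS and 0.40 to 0.74 for LPS relative to control without 1 array, and -1.02 to -0.19 and 0.09 to 0.95 under the other alternatives. In LPS+RSV relative to control CCL20 spanned -0.53 to -0.07 without 1 array, and was -0.09 with array weights. CD14 spanned 0.07 to 0.19 in LPS relative to control, 0.07 to 0.16 in LPS+RSV relative to LPS and 0.19 to 0.31 in LPS+RSV relative to control without 1 array. With the cell cycle score as a covariate LY96 was 0.020 in LPS relative to control and CD14 was -0.0039 in LPS+RSV relative to LPS. Without LPS replicates 1 and 2 and LPS+RSV replicate 1, LY96 was 0.038 in LPS+RSV relative to LPS. With array weights CXCL8 was -0.0095 in LPS+RSV relative to control. Without 1 array, TLR4 lay between -0.13 and 0.012 in LPS relative to control, -0.015 and 0.12 in LPS+RSV relative to LPS, and -0.052 and 0.050 in LPS+RSV relative to control. LY96 lay between -0.066 and 0.058, -0.089 and 0.020, and -0.092 and 0.016 in the same comparisons, and CXCL8 between 0.05 and 0.18, -0.15 and -0.02, and -0.0080 and 0.064. The cause of these changes was not tested.

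Counts of genes called over the array moved more. In LPS relative to control they were 4, 2 to 9 without 1 array (9 without LPS replicate 3), 20 with the cell cycle score and 0 in a fit to only the 2 groups compared (1266 at an unadjusted p under 0.05). In LPS+RSV relative to LPS they were 5, 2 to 40 without 1 array (40 without LPS replicate 3, 12 without LPS+RSV replicate 2) and 3 over all rows. The count there was 1 without LPS replicates 1 and 2 and LPS+RSV replicate 1, and 0 in the fit to 2 groups (2036 at an unadjusted p under 0.05). Same-numbered arrays deviated from their group means with correlations from -0.54 to 0.71, over 0.1 in 4 of 15 pairs. For LPS+RSV with control they were -0.44, 0.71, 0.06, 0.10 and 0.43 in replicates 1 to 5. Pairs with an LPS array gave -0.54 to 0.12. The main fit treated all arrays as unpaired, and whether the numbers pair the samples was not settled. With the replicate block, 3 genes were called in LPS relative to control, 4 in LPS+RSV relative to LPS and 0 in LPS+RSV relative to control (1202 at an unadjusted p under 0.05), and CCL20 in LPS+RSV relative to LPS had an adjusted p = 0.282 by limma.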

Other observations

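Among the genes read beside the sensing pathway, KRT20, a keratin of differentiated intestinal epithelium, was at 6.80 ± 0.94 in LPS and 5.63 ± 0.27 in control (log2, SD, n = 5 each), with 4 of 5 LPS arrays above every control array and a limma adjusted p = 0.406. In LPS+RSV it was at 5.77 ± 0.41, which differed from LPS by -1.02 ± 0.34 (limma adjusted p = 0.202). Of the 8 enterocyte markers measured, 6 were higher and 2 lower in LPS+RSV relative to LPS (median 0.13), and 5 were higher and 3 lower in LPS relative to control (median 0.03). Of all genes, 52% and 54.1% were higher, in the same order. SI, the sucrase-isomaltase of the brush border, was at 11.80 ± 0.28 in LPS and 12.23 ± 0.38 in control (limma adjusted p = 0.648). Neither passed.

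ISG15, an interferon-induced modifier, lay higher in all 5 LPS+RSV arrays than in every LPS array, by 0.17 ± 0.07 (limma adjusted p = 0.253). Groups without overlap, in either direction, were found for 2.43% of all genes. In that comparison 5 of the 8 measured genes of the interferon arm were higher and 3 lower, where 52% of all genes were higher. Relative to control, ISG15 differed by 0.18 and PGLYRP2 by 0.37 in LPS+RSV (limma adjusted p = 0.521 for each). PGLYRP2, an amidase that cleaves bacterial peptidoglycan, differed by 0.37 ± 0.17 between LPS+RSV and LPS (limma adjusted p = 0.298), and IL17RE, a receptor of interleukin 17C, by 0.18 ± 0.07 (limma adjusted p = 0.237). Of the 117 genes of the endotoxin lists set against CCL20, MAP3K8, a kinase downstream of Toll receptors that was singled out after its value was seen, had the highest correlation with it over 15 arrays (r = 0.850, and no p is given). The lowest r among the 117 was -0.874, which was larger in size.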
